A study of Bos taurus with 12 samples.

Results

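Messenger RNA was compared in the biceps brachii, a skeletal muscle of the foreleg, between 4 bulls fed dexamethasone and 4 untreated bulls. Dexamethasone is a synthetic glucocorticoid. These 8 arrays were chosen by their labels, and they belong to a series of 12 arrays, 1 per bull, on a bovine Agilent design read in 1 colour. The treated bulls received 0.75 mg of dexamethasone per head in feed for 42 days and the controls received neither drug. A further 4 bulls received 0.66 mg of dexamethasone per head for 21 days together with clenbuterol, a beta-adrenergic agonist, for 28 days (2 mg per head in the first week, 4 mg in the second and 6 mg afterwards). All were male and 18 to 20 months old. In all 24 bulls were studied, 8 in each group, and the best RNA decided which 12 were hybridised, so the arrays are not a random draw from each group. The sources used here do not give the time from the last dose to slaughter.

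Glucocorticoids cross the cell membrane and bind the glucocorticoid receptor, a transcription factor encoded by NR3C1 that is held in the cytosol by heat shock chaperones. The bound receptor moves to the nucleus, where it raises the transcription of genes such as FKBP5 and PER1 and restrains inflammatory genes. In skeletal muscle these hormones are known for shifting amino acid and glucose use and, at high exposure, for fibre atrophy. They are also known to act on the connective tissue and immune cells that lie between the fibres.

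Each value below is a log2 signal relative to the 75th percentile of its own array, so 0 is the brightness at that percentile, and a difference of 1 is a 2-fold difference. Between 53.2% and 68.7% of spots were well above background on the 8 arrays. The marker genes of skeletal muscle fibres bore out the labelled tissue: 9 of 11 were measured, and all 9 were well above background on all 8 arrays. ACTA1, the actin of skeletal muscle, lay at 8.47 to 8.90 in controls and 8.30 to 9.05 after dexamethasone. The file headers place control replicates 1 to 3 on scan day 1, control replicate 4 and dexamethasone replicates 1 to 3 on day 2, and dexamethasone replicate 4 on day 3. Treatment and scan day were therefore largely, though not wholly, confounded. By the same headers, slide went with scan day on all 8 arrays, so slide and scan day cannot be told apart among them. Arrays of day 2 had a higher signal on negative control spots (67.3 to 92.5 units, against 30.8 to 43.7 on the other days over all 12 arrays). Dexamethasone replicate 1 stood apart from the other 7 arrays, at -61.7 on the second principal component (24.2% of the variance) where the others lay between -21.3 and 41.4. Its level of MYH3, the embryonic myosin heavy chain, was 4.75, against -2.70, -4.29 and -3.29 in the other treated bulls and -3.30 to -1.48 in controls. Arrays correlated at 0.977 on average within the controls, 0.967 within the treated bulls and 0.965 between them, and no pair was identical.

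Among the genes called by the test, falls far outnumbered rises. Of 13681 genes tested with limma, 84 were called at an adjusted p under 0.05, which is 0.614% of the genes tested. Among them 80 were lower after dexamethasone (0.585% of genes tested) and 4 were higher (0.0292%). The called falls had a median log2 change of -1.59, and 27 of the 80 exceeded a log2 change of 2 in size. Over all genes the median change was 0.03, and 45.4% of genes lay below 0. The imbalance was weaker among small p-values taken without adjustment, where 941 genes were lower and 746 higher at an unadjusted limma p under 0.05, and it was wider at an unadjusted p under 0.001, with 146 lower and 18 higher. By size alone, 479 genes had a log2 change below -1 and 255 a change above 1. For 83 of the 84 called genes the values of the 4 treated bulls did not overlap those of the 4 controls, the exception being P4HA3. Over all genes 6.44% had no overlap, 3.93% with the treated bulls lower and 2.51% with them higher. Called falls were often of dim probes: 47 of the 80 were well above background on all 8 arrays, where 78.6% of all genes tested were. Another 30 were so on all 4 controls and on only 1 to 3 treated arrays. Leaving out dexamethasone replicate 1 raised the number of calls to 261 (237 lower, 24 higher), which held 82 of the 84. Leaving out control replicate 1, 2, 3 or 4 gave 24, 27, 45 and 46 calls, and leaving out dexamethasone replicate 2 or 3 gave 34 and 33.

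**Figure D1:**
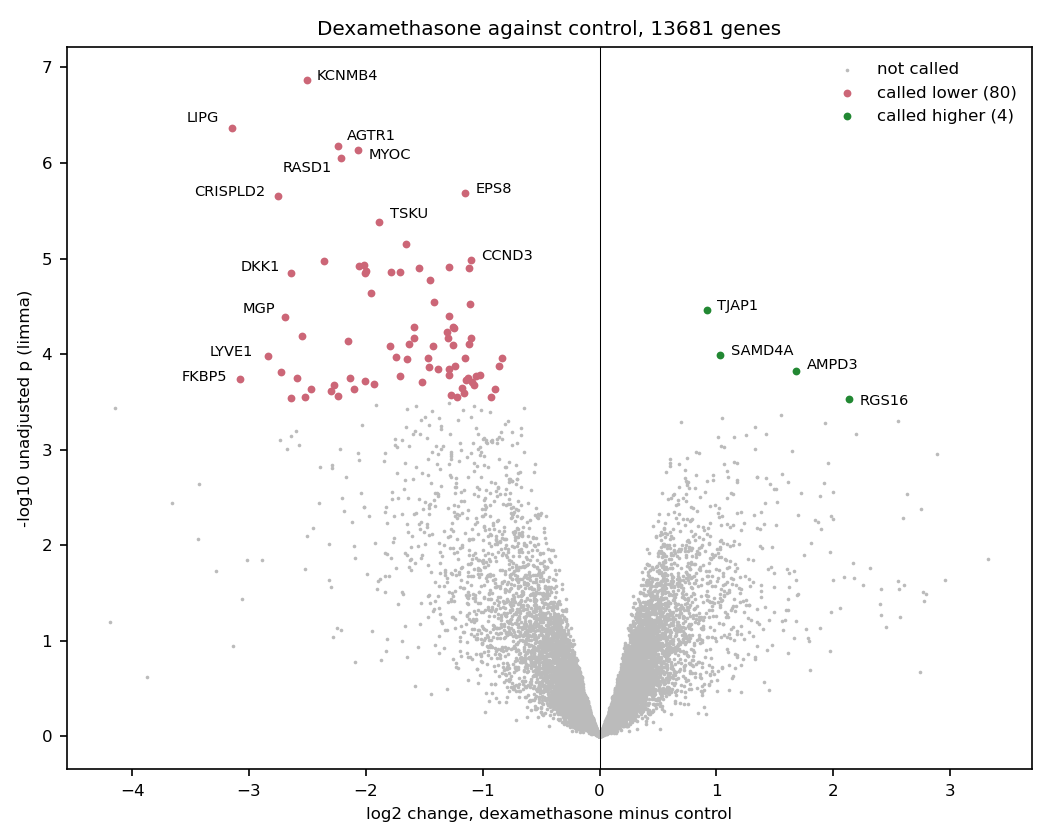
Each point is 1 of 13681 genes, with the log2 change (dexamethasone minus control, 4 bulls per group) on the x axis and -log10 of the unadjusted limma p on the y axis. The 80 genes called lower (red) reach further to the left than the 4 called higher (green) reach to the right.

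Scan day was put to the data by adding to the model a block of 2 levels, day 2 against the other days. With this block 13 genes were called, all lower and all among the 84, which is 0.0950% of genes tested. They were KCNMB4, LIPG, AGTR1, MYOC, RASD1, EPS8, CRISPLD2, TSKU, CCND3, SLC43A2, HMCN2 and a pair of transcripts known only by sequence accession. With scan day itself as a fixed block, which sets 3 treated arrays of day 2 against 1 control, limma called 0 genes, and 1186 had an unadjusted p under 0.05. Over the 80 called falls the median log2 change was -1.52 within day 2 (3 treated bulls, 1 control) and -1.54 on the other days (1 treated bull, 3 controls). That all 80 lay below 0 in both sets follows for nearly all of them from the lack of overlap.

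**Figure D2:**
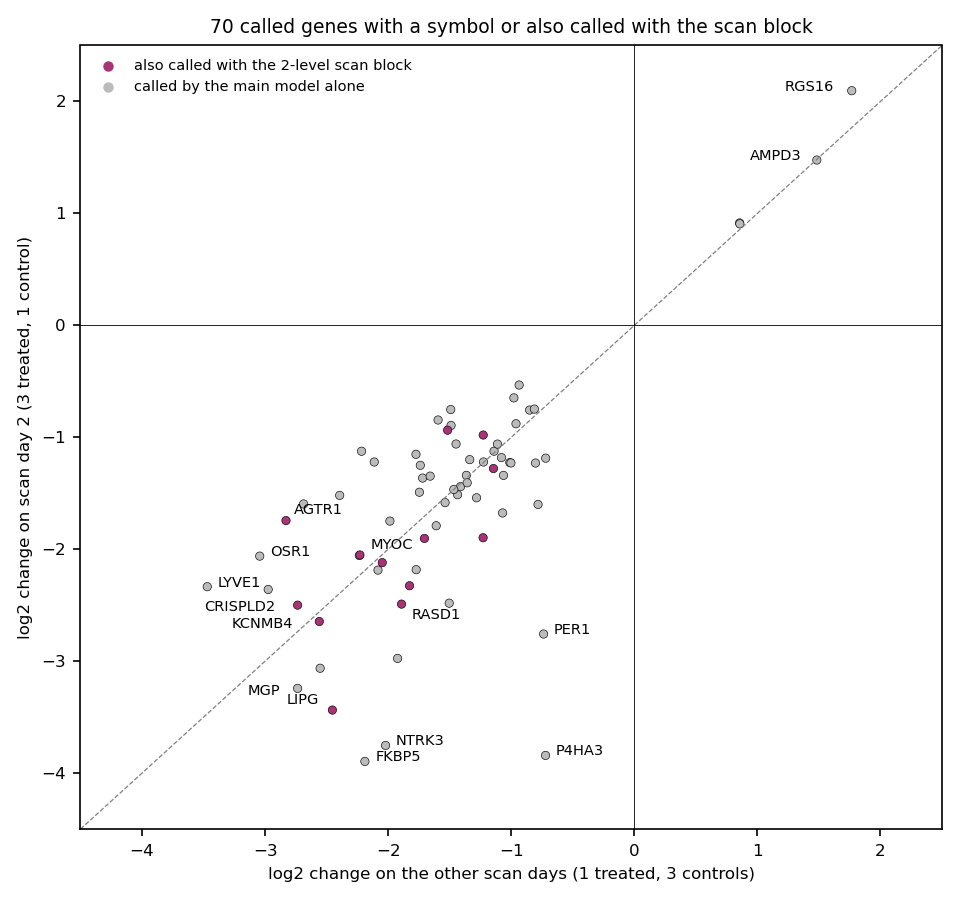
The log2 change of 70 called genes within scan day 2 (y axis, 3 treated bulls and 1 control) is plotted against the change on the other scan days (x axis, 1 treated bull and 3 controls), with purple points for genes also called with the 2-level block and a dashed line where both are equal. FKBP5, PER1, NTRK3 and P4HA3 lie well below the line, so their falls were larger within day 2, and AGTR1, LYVE1 and OSR1 lie above it.

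Among the genes that were called both with and without the scan block, KCNMB4 had the smallest p. It encodes a regulatory beta subunit of the large-conductance, calcium-activated potassium channel. Its level was -2.39, -2.84, -3.17 and -2.57 in the 4 controls and -5.20, -5.36, -5.09 and -5.36 in the treated bulls. The treated values lay within a narrow range far below every control (log2 change -2.51 ± 0.23 SE, n = 4 per group, 5.69-fold, limma adjusted p = 0.00185). Only 1 treated array was well above background, so the size of the fall is uncertain. With 3 treated values raised to their array's lowest signal well above background, it was 3.83-fold. Under another background correction, normexp, the log2 change of KCNMB4 was -0.99, and a second probe of the gene gave -1.46. LIPG, endothelial lipase, which cleaves phospholipids of lipoproteins at the vessel wall, was also dim after treatment. Controls held -2.73, -2.67, -3.31 and -2.81, and treated bulls -6.79, -6.20, -5.76 and -5.36. That difference of -3.15 ± 0.32 (8.85-fold, limma adjusted p = 0.00242) was matched by -2.77 on its other probe, with 1 treated array well above background. Since 3 of the 4 treated values lay below the floor of their array, the lowest signal of any probe well above background there, the size is set partly by background. With such values raised to the floor, the fall was 3.48-fold, and under normexp background correction the log2 change of LIPG was -1.08. Among called genes with a symbol that were well above background on all 8 arrays, FKBP5 had the largest fall, a log2 change of -3.08.

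AGTR1, the type 1 receptor for angiotensin II, was well above background on all 8 arrays. It measured -1.03, -1.19, -1.42 and -1.65 in controls and -3.60, -3.29, -3.30 and -4.04 after treatment. Dexamethasone replicate 4 was the lowest of all, no treated value came near a control, and the log2 change was -2.23 ± 0.24 (4.71-fold, limma adjusted p = 0.00242). MYOC encodes myocilin, a secreted glycoprotein known for its induction by glucocorticoids in the drainage tissue of the eye. In this muscle it was lower after dexamethasone, at 3.02, 2.65, 2.90 and 2.92 in controls and 0.79, 0.72, 1.09 and 0.63 in treated bulls. Its fall was 4.18-fold (log2 change -2.07 ± 0.22, limma adjusted p = 0.00242), and it was nearly equal within day 2 (-2.05) and on the other days (-2.23). EPS8, an actin-binding adaptor of growth factor receptors, had a smaller but tight fall. Controls lay at 1.08, 1.13, 0.96 and 0.84 and treated bulls at -0.03, -0.31, -0.09 and -0.17, a log2 change of -1.15 ± 0.14 (limma adjusted p = 0.0043).

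TSKU, tsukushi, a secreted leucine-rich protein that binds growth factors, measured -1.69, -1.86, -2.62 and -2.12 in controls and -3.70, -4.11, -4.25 and -3.76 in treated bulls. Every treated value lay below every control (log2 change -1.88 ± 0.24, limma adjusted p = 0.00708). CCND3 encodes cyclin D3, which drives cells from G1 into S phase and is also kept in differentiated muscle. It lay at 1.42, 1.04, 1.28 and 1.54 in controls and 0.38, 0.16, 0.24 and 0.10 after dexamethasone (log2 change -1.10 ± 0.15, limma adjusted p = 0.00929). SLC43A2, a transporter of large neutral amino acids, was 3.88-fold lower. Control replicate 3, at 1.60, was the control nearest to the treated bulls, the other controls lying at 2.54, 2.75 and 2.59 and the treated bulls at 0.81, 0.59, 0.02 and 0.25. HMCN2, named here by its gene number while the probe's description reads hemicentin 1, is an extracellular matrix protein. It was at -1.57, -1.81, -1.97 and -1.85 in controls and -2.71, -2.93, -2.72 and -3.30 in treated bulls (log2 change -1.12 ± 0.19, limma adjusted p = 0.0266).

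**Figure D3:**
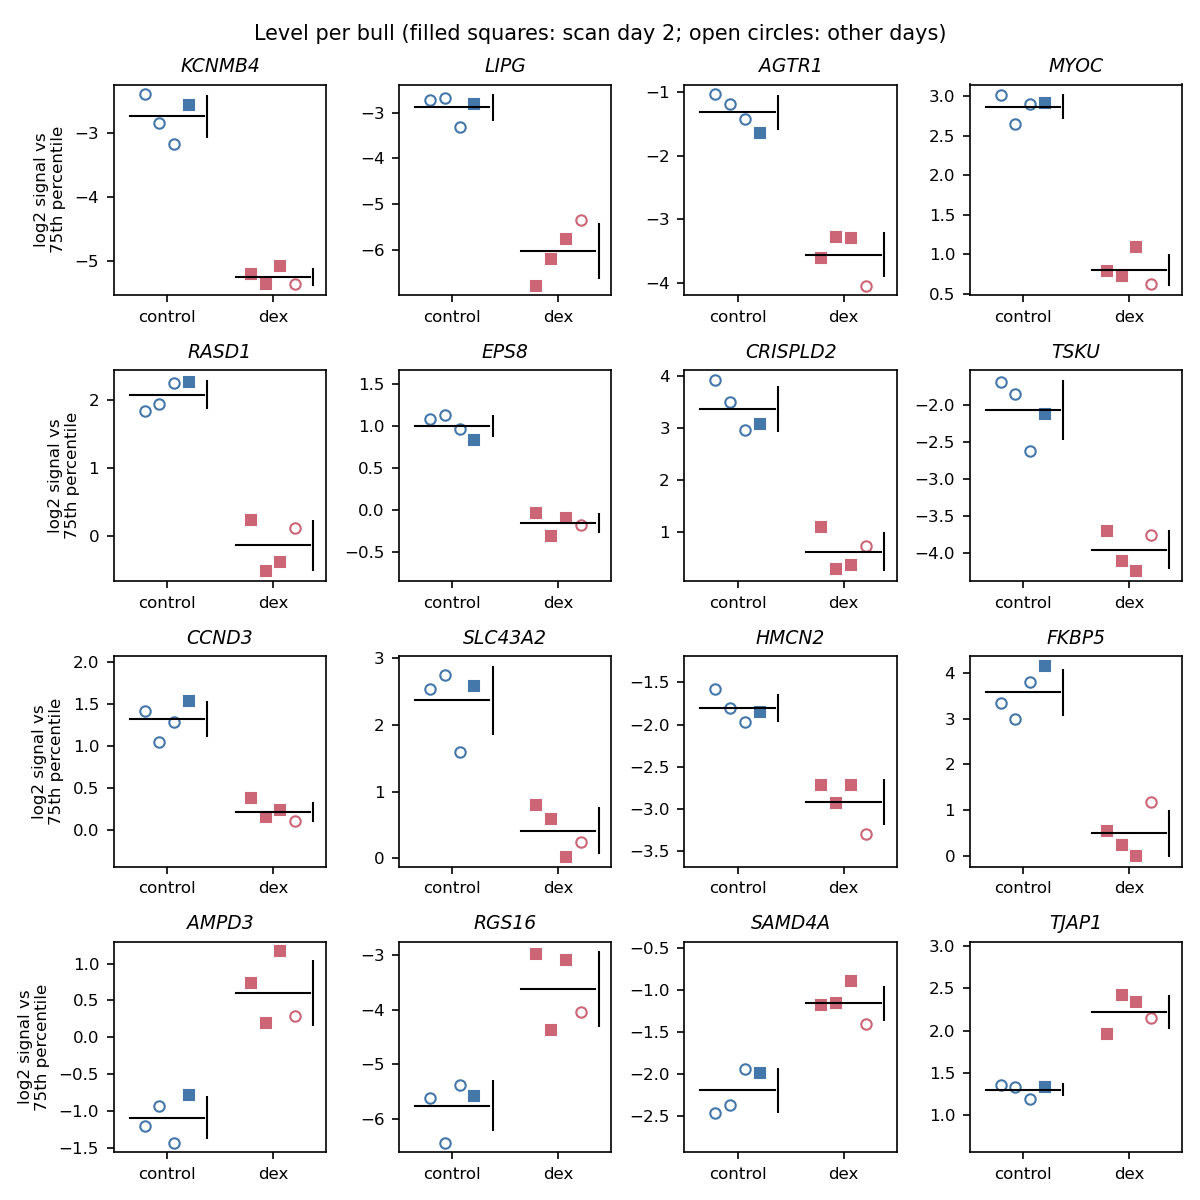
Log2 signal relative to the array's 75th percentile (y axis, its range set per gene) for 16 called genes in each of the 4 control (blue) and 4 dexamethasone (red) bulls; bars give the mean and, beside it, 1 SD, and filled squares mark scan day 2. In none of the 16 panels do the groups overlap, and the single control of day 2 lies with the other controls.

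Some genes known to be induced by the glucocorticoid receptor were lower after 42 days of treatment, and most of those listed were not called. Of 45 such genes, 40 were measured and 7 were called lower, where 0.585% of all genes were, and 0 were called higher. At an unadjusted limma p under 0.05 there were 17 lower and 1 higher, where 941 of all 13681 genes were lower and 746 higher. Their median log2 change was -0.67 against 0.03 over all genes, with 29 of 40 below 0 and 11 above, where 45.4% of all genes lay below 0. The 7 were FKBP5, PER1, KLF9, NFKBIA, CRISPLD2, RASD1 and PIK3R1. ARRDC2, an arrestin-domain protein outside this list, was also called and is grouped with these genes here, a choice made after the values were seen. MYOC, described above and known for such induction in the eye, was not on the list either. The list was chosen with earlier results of these data known, so its count is not independent evidence of a direction. FKBP5, a co-chaperone that lowers the affinity of the receptor for hormone, measured 3.35, 2.99, 3.80 and 4.16 in controls and 0.55, 0.25, -0.01 and 1.19 in treated bulls. The groups were far apart, yet the fall was larger within day 2 (-3.90) than on the other days (-2.19), and with the block its adjusted p was 0.14. RASD1, a Ras-like GTPase named for its induction by dexamethasone, was at 1.84, 1.95, 2.25 and 2.27 against 0.24, -0.52, -0.39 and 0.12, and kept its call with the block (limma adjusted p = 0.0186).

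CRISPLD2, a secreted protein, had the second-largest fall of this list. Controls held 3.92, 3.49, 2.96 and 3.07 and treated bulls 1.09, 0.27, 0.35 and 0.72, while a second probe under the same name gave a log2 change of -0.10. The probes therefore disagree, and the call rests on the brighter one. NFKBIA, which holds the inflammatory factor NF-kappa-B in the cytosol, lay at 3.49, 3.73, 3.58 and 3.19 in controls and 1.57, 1.60, 1.17 and 1.61 in treated bulls. KLF9, a zinc finger transcription factor, was 2.44-fold lower, at 3.95, 3.52, 3.87 and 3.67 against 2.90, 2.35, 2.17 and 2.44. Both genes showed groups well apart, and neither was called with the block (limma adjusted p = 0.0513 and 0.0797). PER1, a repressor of the circadian clock, gave 5.52, 5.82, 5.87 and 6.03 in controls and 3.68, 3.23, 2.92 and 5.0 in treated bulls. Dexamethasone replicate 4, scanned on day 3, was the treated bull nearest the controls for PER1, and the change was -2.76 within day 2 and -0.74 on the other days. PIK3R1, which encodes p85-alpha, a subunit that controls phosphoinositide 3-kinase, fell by 2.44-fold, and its 2 other probes gave changes of -1.14 and -0.76. ARRDC2 lay at 3.61, 4.41, 3.75 and 3.97 in controls and 2.09, 1.71, 1.56 and 2.15 in treated bulls, a 4.16-fold fall (limma adjusted p = 0.00929; 0.0513 with the block).

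Other well-known responders of muscle to glucocorticoids were not called. NR3C1, the receptor gene, changed by -0.22 ± 0.25 on the log2 scale (limma adjusted p = 0.776). PDK4, which shuts off pyruvate dehydrogenase, gave -1.60 ± 0.35 (limma adjusted p = 0.0759), and GLUL, glutamine synthetase, -0.93 ± 0.24 (0.117). The groups did not overlap for PDK4 or GLUL, although both missed the threshold. Changes were smaller against their error for DUSP1, a phosphatase of MAP kinases (-0.64 ± 0.45), for SGK1, a kinase (0.02 ± 0.30), for ANGPTL4, an inhibitor of lipoprotein lipase (0.61 ± 0.61), and for KLF15 (-1.08 ± 0.58). TSC22D3 was dim, well above background on 3 control and 2 treated arrays, and gave -0.28 ± 0.31. Of 20 genes for the receptor and its chaperones, all were measured and 1, FKBP5, was called lower, where 0.585% of all genes were. Their median was 0.07.

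Sorted by role after their values were seen, the 68 called genes with a symbol held 22 that encode secreted or matrix proteins or enzymes that modify them, with falls of 1.78-fold to 6.48-fold. Falls made up 64 of the 68, and roles were not assigned to the genes that were not called, so this sorting describes the called genes and has no background share. Another 15 were receptors, channels and signalling proteins, of which 14 were lower. There were 8 enzymes and transporters, 8 receptor-linked genes as above, 7 genes of transcription, translation and the cell cycle, 5 of immune cells and 3 others. Of the 84 called genes, 24 stood on one of the 35 gene lists and 44 with a symbol stood on none. For 25 of the 64 falls fewer than 4 treated arrays were well above background, so their folds below rest partly on dim values. A fold given as at least N has the values under an array's floor raised to it, and other folds are as measured. Such a fold is a lower bound for this background treatment alone, and normexp background correction gave smaller changes for several genes.

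Several called matrix genes keep connective tissue from mineralising or shape its fibres. MGP, matrix Gla protein, an inhibitor of calcification, measured 4.10, 3.21, 4.55 and 4.80 in controls and 2.18, 1.03, 1.44 and 1.22 in treated bulls. Control replicate 2 and dexamethasone replicate 1 were the nearest pair and did not overlap, and the fall was 6.48-fold (log2 change -2.70 ± 0.43, limma adjusted p = 0.0201). COL15A1, a collagen of basement membranes, lay at 2.12, 1.40, 1.38 and 1.68 against 0.61, 0.12, 0.62 and 0.63 (2.22-fold lower, limma adjusted p = 0.0312). MFAP2, a component of elastic microfibrils, was at 1.26, 1.36, 1.05 and 1.34 in controls and 0.72, -0.08, -0.64 and -0.14 in treated bulls. For MFAP2 dexamethasone replicate 1 again lay nearest the controls. ENPP1, which makes the calcification inhibitor pyrophosphate, was 2.42-fold lower on the brighter of its probes and had a change of -1.58 on the other.

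Proteases of the matrix and their inhibitors were among the falls as well. MMP2, a gelatinase, measured 1.88, 2.12, 2.20 and 2.21 in controls and 1.30, 0.99, 0.25 and 0.35 in treated bulls (2.60-fold lower, limma adjusted p = 0.0366), with -1.20 on its other probe. RECK, a membrane-anchored inhibitor of such proteases, was 3.13-fold lower. CPXM1, a carboxypeptidase-like secreted protein, fell from -3.67, -3.59, -2.82 and -2.78 to -7.39, -4.17, -5.96 and -5.91. Only 1 treated array was well above background for CPXM1 (at least 2.75-fold lower), and dexamethasone replicate 2 lay closest to the controls. P4HA3, a prolyl hydroxylase of collagen, was the only called gene whose groups overlapped, since dexamethasone replicate 4 (-4.31) lay just above control replicate 2 (-4.34).

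Called secreted factors included modulators of growth factor signals. DKK1, an inhibitor of Wnt signalling, lay at -1.69, -2.48, -2.35 and -2.04 in controls and -5.32, -4.15, -5.57 and -4.10 in treated bulls. Its fall was 6.25-fold (log2 change -2.64 ± 0.38, limma adjusted p = 0.00929), with 2 of 4 treated arrays well above background, and at least 4.45-fold. The Wnt receptor FZD4 was 2.33-fold lower, and FZD1, with 2 treated arrays well above background, at least 1.85-fold. GAS1, a co-receptor for hedgehog ligands, was 2.21-fold lower and VEGFD, a growth factor of lymphatic vessels, 1.78-fold lower. PTGES, the inducible prostaglandin E synthase, was at least 2.71-fold lower, with 2 treated arrays well above background. Of the adipokine-like proteins, C1QTNF1 fell by 3.0-fold and C1QTNF2, again with 2 treated arrays well above background, by at least 1.63-fold. ABI3BP, a matrix protein, fell by 3.26-fold, and FGL2, a fibrinogen-like protein, by 3.27-fold.

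Among receptors and signalling proteins, NTRK3, the receptor of neurotrophin 3, had the largest fall. Controls lay at -1.14, -2.0, -1.94 and -0.51 and treated bulls at -3.88, -4.54, -4.35 and -3.71 (6.62-fold lower as measured, at least 5.84-fold, limma adjusted p = 0.0377). Its second probe gave a smaller change of -1.64. DDR2, a receptor tyrosine kinase for collagen, was 2.16-fold lower, GNG2, a G protein gamma subunit, 2.38-fold, and HPCAL1, a neuronal calcium sensor, 2.45-fold. The tyrosine phosphatases PTPN9 and PTPN13 were lower by 2.04-fold and 2.18-fold, and IL27RA, a cytokine receptor, by 1.81-fold.

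OSR1, a transcription factor of the fibro-adipogenic progenitors that lie between fibres, measured 0.23, 0.83, -0.12 and -0.25 in controls and -2.54, -1.12, -3.29 and -2.73 in treated bulls. Dexamethasone replicate 2 lay nearest the controls (log2 change -2.59 ± 0.49, limma adjusted p = 0.0391). EIF4B, a translation initiation factor seen by 1 probe, was 5.75-fold lower (at least 4.35-fold), with treated values spread from -5.36 to -2.40. SMARCD2, a subunit of the SWI/SNF chromatin remodeller, was 2.26-fold lower and HEXIM2, an inhibitor of transcription elongation, 1.90-fold. Among enzymes, SULT1A1, a sulfotransferase, was 2.47-fold lower and GLCE, which modifies heparan sulfate and was well above background on 2 treated arrays, at least 2.29-fold. The remaining called genes with a symbol were VIT, OLFML2B and ADAMTSL3 (matrix proteins), SRGAP3 and SH2D3A (signalling proteins), SALL2 (a zinc finger factor), IP6K2 (an inositol phosphate kinase), B3GNT8 (a glycosyltransferase), C21H14orf132, PCDHA13 and ABCA10, all lower by 1.86-fold to 4.45-fold as measured. Of these, VIT, SALL2, B3GNT8, SRGAP3 and PCDHA13 were dim after treatment. With values under an array's floor raised to it, their folds were 1.64, 1.44, 1.65, 1.90 and 2.56. The names PCDHA13 and ABCA10 are uncertain, since the human matches given for their probes are the related genes PCDHA6 and ABCA6.

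The 4 called rises were RGS16, AMPD3, SAMD4A and TJAP1, and none of them was called with the block, where their adjusted p lay between 0.0797 and 0.161. RGS16, which speeds the shut-off of G protein signals, lay at -5.62, -6.43, -5.38 and -5.57 in controls and -2.98, -4.36, -3.09 and -4.05 in treated bulls. Since 1 control and 3 treated arrays were well above background, the 4.39-fold rise is uncertain in size. AMPD3, an AMP deaminase of the purine nucleotide cycle, was at -1.21, -0.93, -1.43 and -0.78 in controls and 0.74, 0.19, 1.17 and 0.29 in treated bulls. This 3.21-fold rise (log2 change 1.68 ± 0.31, limma adjusted p = 0.0377) was the same within day 2 and on the other days, at 1.48. SAMD4A, an RNA-binding translational repressor, lay at -2.47, -2.37, -1.94 and -1.99 against -1.18, -1.16, -0.89 and -1.40. TJAP1, a protein of tight junctions, lay at 1.35, 1.33, 1.19 and 1.33 against 1.96, 2.42, 2.34 and 2.15. Both rises were small, 2.05-fold and 1.89-fold, with groups that did not overlap.

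Matrix genes lay below 0 beyond the few that were called. Of 49 collagens and structural proteins of the matrix, 46 were measured, 3 were called lower (MGP, COL15A1, MFAP2) and 0 higher, where 0.585% of all genes were called lower. Their median log2 change was -0.86 against 0.03 over all genes, and 44 of 46 lay below 0, where 45.4% of all genes did. At an unadjusted p under 0.05 there were 28 lower and 0 higher, where 941 of all 13681 genes were lower and 746 higher. For 16 of them the groups did not overlap with the treated bulls lower, a pattern that 3.93% of all genes had. Dexamethasone replicate 1 was unlike the other treated bulls here. Its mean over the list, centred on the 8 bulls, was 0.27, near the controls (0.29 to 0.61) and far from the remaining treated bulls (-0.49, -0.67 and -0.87). The median without this bull was -1.09. Fibroblast markers, which include several of these genes, had a median of -0.84 over 23 measured of 26, with 1 called (OSR1) and 20 below 0. DCN, decorin, gave -1.20 ± 0.27 (limma adjusted p = 0.0788) and PDGFRA, the receptor that marks fibro-adipogenic progenitors, -1.18 ± 0.28 (0.0837). Without dexamethasone replicate 1, whose list mean (0.30) lay among the controls (0.30 to 0.58), the fibroblast median was -1.29. In such bulk tissue, fewer cells of a type and less RNA per cell cannot be told apart.

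Of 34 matrix proteases, cross-linkers and inhibitors, 29 were measured, with a median of -0.44. Limma called 2 lower, MMP2 and CPXM1, where 0.585% of all genes were called lower. At an unadjusted limma p under 0.05, 10 were lower and 1 higher, where 941 of all 13681 genes were lower and 746 higher. LOX, which cross-links collagen, gave -2.02 ± 0.57 (limma adjusted p = 0.154). Of 49 secreted genes of Wnt, BMP and TGF-beta signalling, 41 were measured and 1, DKK1, was called lower. Their median was -0.13, and it was 0.02 over the genes well above background on all arrays, so the median had no settled direction. At the same unadjusted threshold, 10 of the 41 were lower and 1 higher. For 7 of them the groups did not overlap with the treated bulls lower, a pattern that 3.93% of all genes had.

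Some immune cell markers were called. Of 25 measured macrophage, monocyte and granulocyte markers 1 was called lower, and of 12 measured lymphocyte markers 2 were, where 0.585% of all genes were. LYVE1, a hyaluronan receptor of lymphatic vessels and of macrophages that live in tissue, measured -1.46, -0.85, -1.07 and -1.56 in controls and -2.58, -4.24, -4.88 and -4.60 in treated bulls. The fall was 7.14-fold as measured (at least 5.88-fold, log2 change -2.84 ± 0.50, limma adjusted p = 0.0312), and dexamethasone replicate 1 was the treated bull nearest the controls. The 25 markers of its list had a median of -0.77 with 22 below 0, where 45.4% of all genes lay below 0. At an unadjusted p under 0.05, 9 of them were lower and 0 higher, where 941 of all 13681 genes were lower and 746 higher. CD163, a scavenger receptor of macrophages, lay at 0.24, 0.79, 0.90 and 0.00 in controls and -0.55, -2.73, -3.55 and -2.16 in treated bulls, and missed the threshold (limma adjusted p = 0.0778). C1QA and C1QB, complement subunits made by macrophages, gave -2.22 ± 0.51 (0.083) and -2.21 ± 0.60 (0.14). Dexamethasone replicate 1 had the highest mean of this list among the 8 bulls, 1.04, where controls held 0.23 to 0.79 and the remaining treated bulls -1.29 to -0.55. The median without this bull was -1.26.

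Lymphocyte genes showed another pattern over the bulls. CD3E, a chain of the T cell receptor complex, was at -3.51, -3.06, -2.43 and -3.34 in controls and -4.74, -4.58, -5.45 and -4.54 in treated bulls (3.34-fold lower as measured, at least 2.43-fold, limma adjusted p = 0.0312). CTSW, cathepsin W of killer lymphocytes, fell from -3.11, -3.32, -3.27 and -3.85 to -7.07, -6.27, -5.67 and -4.74, with 1 treated array well above background and a fall of at least 2.20-fold. TRGC6, a constant segment of the T cell receptor gamma chain whose related segments are alike enough in sequence to make the probe's target uncertain, was 2.77-fold lower as measured (at least 2.01-fold). SLAMF1, a co-receptor of lymphocytes, was too dim to be well above background in the treated bulls, which leaves a fall of at least 1.18-fold. Dexamethasone replicate 1 did not stand apart for these genes, while the lymphocyte list mean of dexamethasone replicate 4 (0.19) lay among the controls (0.18 to 0.36). Only 12 of 30 listed lymphocyte markers were measured, and their median of -0.52 became 0.15 over genes well above background on all arrays. A narrower list of defining lymphocyte markers, 6 of 14 measured, had a median of 0.01 with 3 below and 3 above 0. CD3E was its called gene, and the median of lymphocyte markers thus had no settled direction. On the list of 12, 6 genes were lower and 0 higher at an unadjusted limma p under 0.05. Of all 13681 genes, 941 were lower and 746 higher at that threshold. For 4 of the 12 the groups did not overlap with the treated bulls lower, a pattern that 3.93% of all genes had.

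Markers of the vessel wall and the mixed list of adipocyte and lipogenic genes had small positive medians, which differed between scan days. Of 20 measured endothelial markers, 1 was called lower, LIPG, where 0.585% of all genes were. Of these markers 14 lay above 0, where 54.6% of all genes did, and their median of 0.13 was -0.02 within scan day 2. Smooth muscle and pericyte markers had a median of 0.22 (14 measured; 0.03 within day 2) and adipocyte and lipogenic genes 0.19 (19 measured; 0.42 within day 2 and -0.07 on the other days). The adipocyte list mean of dexamethasone replicate 2, 0.87, stood above those of the other treated bulls (-0.27 to 0.10), which lay near the controls (-0.23 to 0.08). Limma called 0 genes on either list, and at an unadjusted p under 0.05 there were 1 lower and 1 higher on the first and 2 higher on the second. Of all 13681 genes, 941 were lower and 746 higher at that threshold. CIDEA, a lipid droplet protein, gave 1.14 ± 0.31 (limma adjusted p = 0.132) and SCD, a fatty acid desaturase, 0.78 ± 0.31 (0.322). A narrower list of defining adipocyte markers, 6 of 8 measured, had a median of 0.04, with 3 below and 3 above 0. Its members ranged from -1.14 to 1.14, so adipocyte markers proper had no settled direction. Schwann cell markers gave 0.29 over 8 measured genes, and -0.38 within scan day 2.

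**Figure D4:**
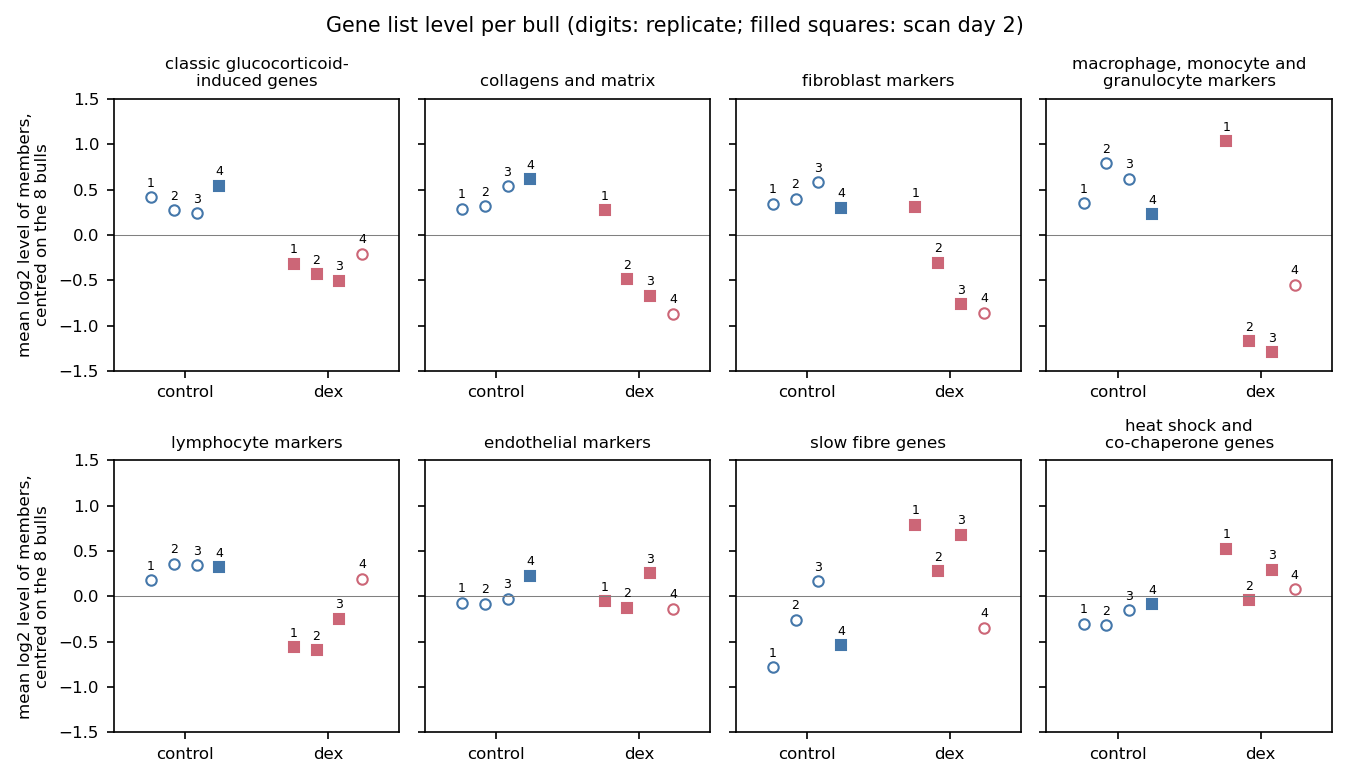
Mean log2 level of the measured members of 8 gene lists in each bull, centred on the 8 bulls (y axis), for controls (blue) and dexamethasone (red), with the replicate number beside each point and filled squares for scan day 2. Dexamethasone replicate 1 lies beside or above the controls for matrix, fibroblast and macrophage genes and with the other treated bulls for classic glucocorticoid-induced and lymphocyte genes.

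Of the 19 slow and 18 fast fibre contractile genes measured, 0 were called by limma. At an unadjusted p under 0.05, 5 slow and 1 fast gene were higher, where 746 of all 13681 genes were. MYH7, the slow myosin, changed by 0.23 ± 0.17, MYH1, a fast myosin, by -0.36 ± 0.36, and DES, desmin, by 0.34 ± 0.21. Slow fibre genes had a median of 0.67 over 19 measured, with 0 called and 15 above 0, where 54.6% of all genes lay above 0. CSRP3, a stretch-linked Z-disc protein, had the smallest p of that list (1.42 ± 0.39, limma adjusted p = 0.148). The slow fibre median was 1.13 within scan day 2, 0.09 on the other days and 0.32 without dexamethasone replicate 1. Fast fibre genes had a median of -0.22, which was 0.09 without that bull. Glycolysis and glycogen genes, 32 measured, likewise moved from -0.18 to 0.08.

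The genes of muscle breakdown and growth gave no call beyond PIK3R1. FBXO32 and TRIM63, the ubiquitin ligases known for muscle atrophy, changed by 0.18 ± 0.37 and -0.82 ± 0.42. The list they belong to had a median of -0.01 over 31 measured genes. MSTN, myostatin, an inhibitor of muscle growth, spread widely, from -5.39 to -2.75 in controls and -6.88 to -4.25 in treated bulls. IGF1 changed by -0.25 ± 0.44. Of the myogenic regulators, MYOD1 was at 2.24, 2.33, 1.94 and 1.80 in controls and 2.65, 3.57, 3.16 and 4.27 in treated bulls, and VGLL2, a muscle transcription cofactor, at 0.16, 0.67, 0.21 and -0.19 against 0.81, 2.09, 1.96 and 2.20. Neither passed (limma adjusted p = 0.0829 and 0.0621), although in both the groups did not overlap. MYOG, myogenin, gave 2.00 ± 0.59 (0.17). The whole list of 22 measured genes had a median of 0.01.

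Heat shock and co-chaperone genes leaned the other way from the matrix. Of 38 measured, 37 lay above 0, where 54.6% of all genes did. Their median was 0.37 against 0.03 over all genes, with a range from -0.80 to 1.29, and 0 were called by limma. At an unadjusted p under 0.05 there were 11 higher and 1 lower, where 746 of all 13681 genes were higher and 941 lower. HSPB6, a small heat shock protein of muscle, gave 0.68 ± 0.20 (limma adjusted p = 0.165), DNAJA1, a co-chaperone of Hsp70, 0.74 ± 0.24 (0.216), and HSPA1A, the inducible Hsp70, 1.03 ± 0.34 (0.231). The list median was 0.32 within day 2, 0.34 on the other days and 0.29 without dexamethasone replicate 1. Each of the 4 controls had a lower list mean (-0.32 to -0.08) than each treated bull (-0.04 to 0.52), though the nearest values were close.

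Other metabolic lists than glycolysis and glycogen, given above at -0.18, had medians above 0 and at most 1 called gene each. Over all genes the median was 0.03, 54.6% lay above 0 and 0.614% were called. Fatty acid uptake and oxidation had a median of 0.31 (35 measured, 30 above 0), the respiratory chain and citrate cycle 0.16 (55 measured, 47 above 0) and sterol synthesis 0.23 (21 measured, 17 above 0). Limma called 0 genes on these lists, and at an unadjusted p under 0.05 there were 5 higher and 1 lower on the first, 2 higher on the second and 3 higher on the third. The counts at that threshold were 746 higher and 941 lower among all 13681 genes. INSIG1, a sensor of sterols, gave 1.51 ± 0.40 (limma adjusted p = 0.127). Of 26 measured genes of the purine nucleotide cycle and energy sensing, AMPD3 was called higher and the median was 0.10. Amino acid transport, polyamine and one-carbon enzymes had a median of 0.11 over 37 measured genes, and SLC43A2 was called lower. Immediate early genes had a median of 0.52 over 27 measured genes with 0 called by limma (at an unadjusted p under 0.05, 5 were higher and 3 lower), and this median was -0.73 within day 2 and 1.49 on the other days.

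The remaining lists held 0 to 3 called genes each. Among all 13681 genes 0.614% were called, and 1687 had an unadjusted limma p under 0.05. NF-kappa-B pathway and inflammation genes gave -0.05 (32 measured; NFKBIA called lower), interferon response and antigen presentation 0.01 (29 measured; 0 called by limma, 3 at an unadjusted p under 0.05) and circadian clock genes 0.00 (19 measured; PER1 called lower). G protein, small GTPase and cyclic AMP genes gave 0.14 over 40 measured, with RASD1 and ARRDC2 called lower and RGS16 higher. KLF transcription factors gave -0.50 over 13 measured, with KLF9 called and KLF6 at -0.96 ± 0.22 (limma adjusted p = 0.0788). Cell cycle genes gave -0.15 over 27 measured, with CCND3 called. Embryonic myosin, denervation and neuromuscular junction genes gave 0.10 over 27 measured, with NTRK3 called lower. Insulin, IGF, PI3K and mTOR signalling gave -0.01 over 43 measured, with PIK3R1 called. Lipases and circulating lipid genes gave 0.31 over 22 measured, with LIPG called, and metallothionein and oxidative stress genes 0.28 over 32 measured, with 0 called by limma and 7 at an unadjusted p under 0.05. Only 3 of 9 erythrocyte markers were measured, with a median of 0.11.

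**Figure D5:**
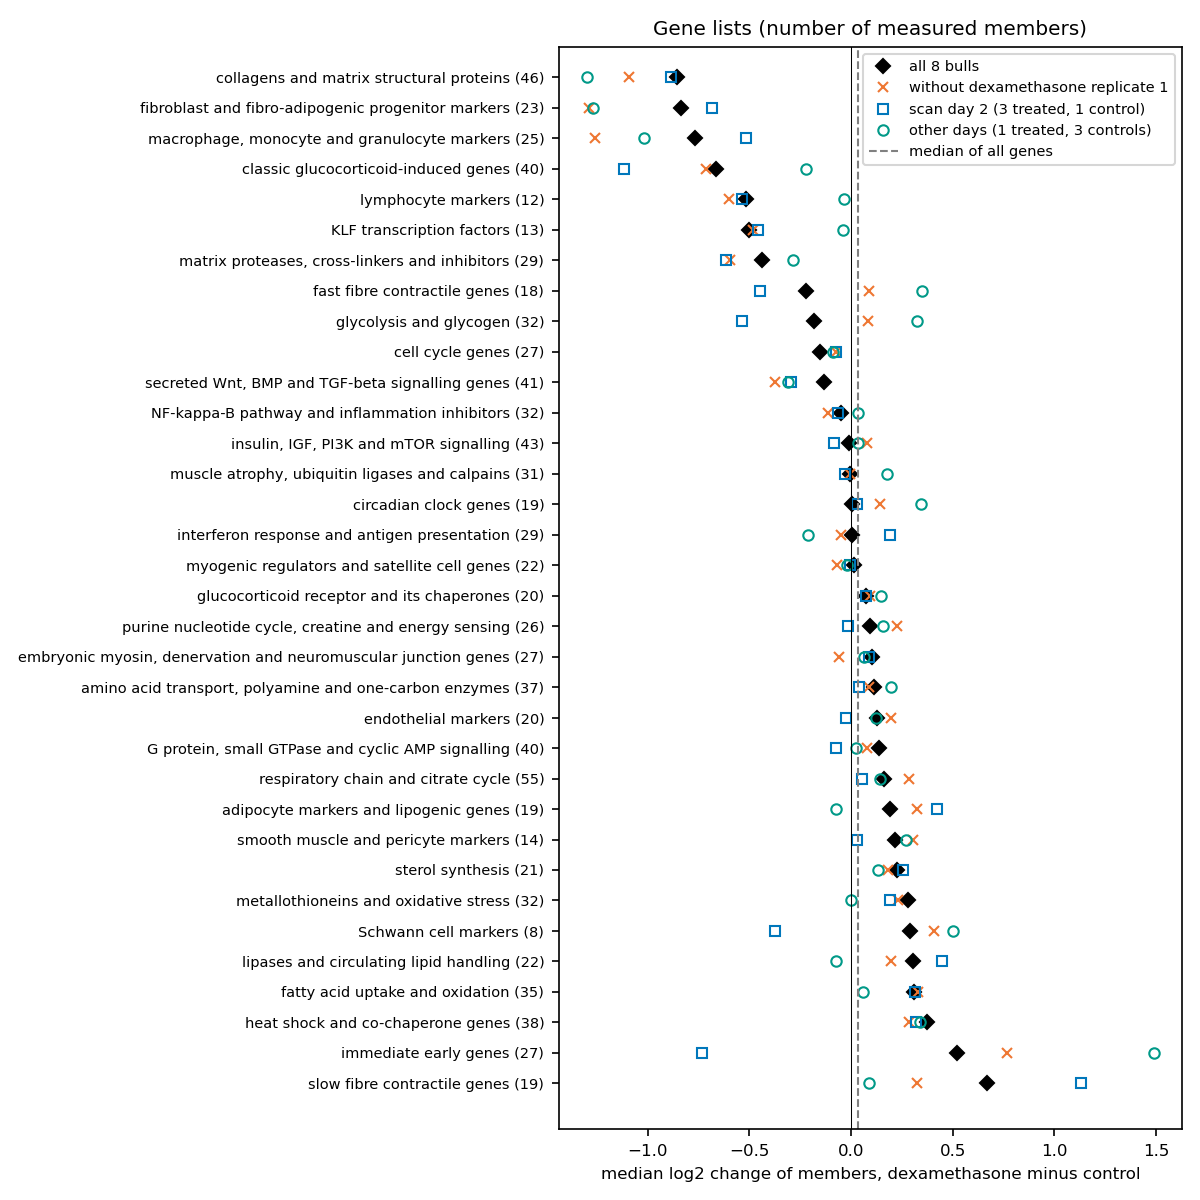
Median log2 change (x axis, dexamethasone minus control) of the measured members of each gene list, with their number, over all 8 bulls (black), without dexamethasone replicate 1 (orange crosses), within scan day 2 (blue squares) and on the other days (green circles); the dashed line is the median of all genes. Matrix, fibroblast, macrophage and classic glucocorticoid-induced lists lie left of the line in all 4 versions, while immediate early genes change side.

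Some large differences missed the threshold, and they are named here after their values were seen. CYP1A1, a xenobiotic-metabolising enzyme, lay at -0.59, -0.74, 0.26 and -0.61 in controls and -3.17, -5.92, -2.62 and -6.55 in treated bulls. Its change was -4.14 ± 0.85, with widely spread treated values and a limma adjusted p of 0.0557. Dexamethasone replicates 2 and 4 lay below the floor of their arrays, and with them raised to it the change was -3.53. Just inside the threshold stood RGS16 (0.0479), CPXM1 (0.0475) and EIF4B (0.0469), and just outside it CORO7 (0.0545), PLXDC1 (0.0546) and LHFPL6 (0.0557). ARG2, an arginase, gave 2.89 ± 0.68 (0.085) and GEM, a small GTPase, 2.19 ± 0.49 (0.0759), with no overlap between groups for either. NTRK2, the receptor of brain-derived neurotrophic factor, gave -2.06 ± 0.49 (0.0937). TBC1D4, which controls the glucose transporter GLUT4, gave 3.32 ± 1.16, and there control replicate 3 (1.89) lay among the treated bulls (0.67 to 2.36) while the other controls were between -3.40 and -3.06.

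The bulls given dexamethasone with clenbuterol had a lower dose for a shorter time as well as a second drug, so those differences cannot be told apart. Against control, limma called 6 genes in that group (0.0439% of genes tested). Between the treated groups it called 2 genes (0.0146%), RASD1 and KCNMB4, both higher in the combination. RASD1 lay at 2.08 ± 0.22 (SD, n = 4) in controls, -0.14 ± 0.37 after dexamethasone and 1.75 ± 0.43 in the combination, a difference between treatments of 1.89 ± 0.24 SE (limma adjusted p = 0.0319). KCNMB4 was at -2.74 ± 0.34, -5.25 ± 0.13 and -3.35 ± 0.44 in the same order, a difference of 1.91 ± 0.23 (limma adjusted p = 0.0319). Neither call held with the scan block, where limma called 0 genes and 1532 had an unadjusted p under 0.05, and without dexamethasone replicate 1 there were 74 calls. For other genes the group means can be set side by side, with dexamethasone arrays shared by both comparisons. Of the 80 genes called lower after dexamethasone, 78 had a higher mean in the combination than after dexamethasone alone and 2 a lower one, and their median change from control was -0.59 in the combination against -1.59. Those 80 were chosen for low values in the dexamethasone arrays, so higher means in another group follow in part from that choice. The count is therefore no evidence of a smaller effect in the combination. FKBP5 averaged 3.58 in controls, 0.50 after dexamethasone and 2.87 in the combination, and MYOC 2.87, 0.81 and 1.94. SLC43A2 averaged 2.37, 0.42 and 0.51. EIF4B, 1 of the 2 with a lower mean, averaged -1.47, -4.0 and -5.23, and was well above background on 1 combination array.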

How the data were processed

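Total RNA of 12 biceps brachii samples was labelled with Cy3 and hybridised to 1 array each, per the labels' protocols. The scanner files that the authors deposited hold spot intensity on a linear scale, made with Agilent Feature Extraction 9.5.1.1, per the file headers. The authors' deposited value table, also of intensity, served as an alternative; its spots rank as in the scanner files (Spearman correlation at or over 0.999996 per array), and how it was made is not stated there. The processed signal was put on the log2 scale and scaled to the 75th percentile of its array, control spots aside. Outlier spots (1 to 7 per array) were dropped and replicate spots averaged. Probes had to be well above background on 4 or more of the 12 arrays, which left 14703, and the probe with the highest mean stood for its gene (13681 genes, 10746 with a symbol, 928 with several probes). Names came from gene numbers, accessions, symbols or human matches through a RefSeq table (assembly ARS-UCD2.0) that served no other purpose, and 4830 of 21475 probes kept the file's name. No probe was mapped to a genome and no sequence is shown.

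The model was fitted with limma 3.58.1 in R 4.3.3 to all 12 arrays with 3 group means, and two-sided p-values were adjusted by Benjamini-Hochberg over all genes. The script was tested on simulated data. A fold of at least N sets each value of the dim group at the higher of itself and the lowest signal well above background on its array, also, as chosen after the values were seen, where only some arrays were dim. It is not a bound under another background correction. Alternatives were other normalizations, filters, models and blocks, and leaving out each of the 8 bulls. The labels give no replicate numbers, so replicates are numbered in accession order. Precision is limited by the number of arrays. The label code of dexamethasone replicate 4 names another slide than its file header, which was used. The comparison and the gene lists were chosen with earlier results of these data known. Named genes were all called genes with a symbol, the genes of smallest p in a direction with under 5 calls or in a list with no call, and 25 fixed genes, of which MYH2 was not on the array under that name. No list was tested, and counts and medians over lists are descriptions.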

Additional observations from a re-analysis of the deposited data

Results flagged for a closer look

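For 12 of 210 groups of 4 bulls tested (5.71%, where chance flags about 1 in 20), 1 bull lay far from the other 3. Control replicate 1 was low for DDR2 (-2.60) and FZD1 (-3.94), control replicate 4 was low for SH2D3A (-2.32), and control replicate 3 was low for TJAP1 (1.19) and high for VEGFD (-2.85). Dexamethasone replicate 3 was low for FZD1 (-5.33), HEXIM2 (-2.32) and NFKBIA (1.17), and dexamethasone replicate 2 was low for COL15A1 (0.12). Of the gene list means, control replicate 3 was high for adipocyte and lipogenic genes (0.082), and dexamethasone replicate 1 was high for myogenic regulators (0.32) and for NF-kappa-B pathway genes (0.41).

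KCNMB4 and RASD1 differed between the treated groups, by log2 differences of 1.91 and 1.89 (combination minus dexamethasone, limma adjusted p = 0.0319 for each), with all 4 combination bulls above all 4 dexamethasone bulls for each gene.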

How the results depend on the processing

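All 70 called genes with a symbol or a call under the scan block kept their sign in each of the 20 alternatives that gave a value, and 18 kept their call in all 8 fits without 1 bull. That the sign held without 1 bull or with a fixed block for each scan day follows for nearly all of them from the lack of overlap. The size of the change moved by over 1.5 times in at least 1 alternative for 35 of the 70: for all 27 that were not well above background on all 8 arrays and for 8 of the 43 that were. It was smallest under normexp background correction for 31 of the 35, at -1.08 for LIPG, -0.99 for KCNMB4, -0.84 for CTSW, -1.27 for DKK1, -0.46 for C1QTNF2 and for FZD1, -0.62 for GLCE and 0.70 for RGS16, and without that alternative 7 moved so far. The main 84 calls became 25 with no filter on dim probes, which also moved the median of all genes by 0.11, 13 with the scan block of 2 levels and 0 with a fixed block for each scan day (limma; 1186 genes at an unadjusted p under 0.05). Leaving out 1 bull gave 24 to 261 calls. The other 9 alternatives gave 56 to 111 calls. Between the treated groups, the 2 calls became 0 with quantile normalization, median scaling, no filter, the mean of a gene's probes, the scan block, scan day or slide as a block (limma; 1302 to 1614 genes at an unadjusted p under 0.05), 1 with normexp or with probes well above background on all arrays, and 0 to 74 without 1 bull. No paired analysis was made, since each array came from a different bull.

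Some list medians moved by more than the spread between bulls. With probes well above background on all arrays, medians were 0.20 for the receptor and its chaperones, 0.024 for Wnt, BMP and TGF-beta genes, 0.15 for lymphocyte markers and -0.17 for myogenic regulators. With the mean of a gene's probes the receptor list gave 0.20, and with normexp the lymphocyte list gave -0.10. With a fixed block for each scan day, medians were -1.12 for classic glucocorticoid-induced genes, -0.30 for Wnt, BMP and TGF-beta genes, 0.029 for smooth muscle, -0.083 for insulin and IGF signalling, -0.075 for G protein signalling, -0.73 for immediate early genes, 0.040 for amino acid enzymes and -0.38 for Schwann cell markers. Without 1 bull, medians ran from 0.036 to 0.15 for the receptor and its chaperones, -1.29 to -0.61 for fibroblast markers, -0.38 to 0.030 for Wnt, BMP and TGF-beta genes, -0.0041 to 0.083 for atrophy genes, -0.20 to 0.14 for clock genes, -0.011 to 0.077 for insulin and IGF signalling, -0.054 to 0.22 for the purine cycle, 0.048 to 0.16 for amino acid enzymes and -0.18 to 0.059 for cell cycle genes. The cause of these shifts was not tested.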
